A study of Homo sapiens with 12 samples.

Results

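Transcripts of 8 genes of the myeloid granule and of the neutrophil and monocyte cytosol were examined, taken by name from the 19505 rows of the count table: MPO, ELANE, PRTN3, AZU1, CTSG, LYZ, S100A8 and S100A9. All 8 had a row. They were counted from the 3' end in 2 cultured lines of human myeloid leukaemia, which had received AC220 (quizartinib, an inhibitor of the receptor tyrosine kinase FLT3) or its vehicle DMSO. The FLT3 gene of MV4-11 has an internal tandem duplication. OCI-AML3 lacks that duplication and is known for a mutation of NPM1. The 4 groups were MV4-11 under 5 nM AC220, MV4-11 under DMSO, OCI-AML3 under 5 nM AC220 and OCI-AML3 under DMSO, each for 24 h and each with 3 libraries. Each line is a single established culture of leukaemia cells, so a difference between the lines is a difference between these cultures. The labels do not say whether replicates were separate cultures, so the p-values rest on library-to-library spread, part or all of which may be technical.

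Azurophil (primary) granules form in promyelocytes, the stage of neutrophil development at which their proteins are made, and transcription of their genes is shut down as cells mature. They hold myeloperoxidase (MPO), which makes hypochlorous acid, and a family of serine proteases, ELANE (neutrophil elastase), PRTN3 (proteinase 3) and CTSG (cathepsin G), with AZU1 (azurocidin), a relative that has lost protease activity. Lysozyme (LYZ) cleaves bacterial cell walls and is stored in several granule types and secreted by monocytes. S100A8 and S100A9 are calcium-binding proteins of the cytosol of neutrophils and monocytes that pair as calprotectin, which binds metal ions.

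The libraries held 10877198 to 16918761 counts, with the MV4-11 DMSO libraries the deepest at 15041493 or more. Levels are given as CPM, counts scaled to library size with TMM factors. The assay reads transcript ends, so counts do not grow with transcript length. All 8 genes passed the filter on low counts, S100A9 through the OCI-AML3 libraries alone, so that its difference between the lines was bound to appear. By chi-square per degree of freedom, MV4-11 AC220 replicate 1 stood farthest from its group, at 8.12 and 9.01 against the other MV4-11 AC220 libraries. Other pairs of replicates lay between 2.56 and 7.46.

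The label of a myeloid leukaemia was checked against marker lists of several cell types. In MV4-11, 5 of 9 tested markers of immature myeloid cells rose after AC220 and 1 fell. The 12 markers of immature myeloid cells summed to 1690 to 1832 CPM in MV4-11 AC220, 1154 to 1187 CPM in MV4-11 DMSO, 905 to 926 CPM in OCI-AML3 AC220 and 908 to 967 CPM in OCI-AML3 DMSO. CD34 had no counts in MV4-11, and KIT had none in OCI-AML3. The 14 measured monocyte markers summed to 236 to 291 CPM in MV4-11 AC220, 299 to 305 CPM in MV4-11 DMSO, 238 to 269 CPM in OCI-AML3 AC220 and 252 to 260 CPM in OCI-AML3 DMSO (6 of 11 tested rose and 4 fell in MV4-11), with FCN1 at 0 in MV4-11. Of the 12 neutrophil markers, which include ELANE, the mature-cell genes FCGR3B, CXCR1, ALPL and MME had no counts in any library. The 3 of 4 tested that rose in MV4-11 were CSF3R, CXCR2 and ELANE itself. The 10 lymphoid markers summed to 31.7 to 40.1 CPM in MV4-11 AC220 and 14.4 to 16.4 CPM in MV4-11 DMSO, and to at most 2.56 CPM in OCI-AML3. CD3E was at 0 throughout, and 3 of 4 tested lymphoid genes rose in MV4-11, CD79A, PAX5 and NKG7. CD79A had 3.65 to 4.54 CPM in MV4-11 AC220 and 0.257 to 0.986 CPM in MV4-11 DMSO. It passed the filter on low counts through MV4-11 AC220 alone, so the filter favoured its rise. HBA1 and HBB of red cells and EPCAM and KRT19 of epithelium were at 0 in every library. The 9 erythroid and megakaryocyte markers summed to at most 8.64 CPM, with EPOR fallen in MV4-11, and the 7 measured epithelial and stromal markers to at most 21.3 CPM, with KRT8 risen in MV4-11. Over all tested genes, 31.5% rose and 26.9% fell in MV4-11. The part of these marker shifts in the results was not tested.

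In MV4-11, AC220 was followed by higher transcript levels of 5 of the 8 genes, S100A8, LYZ, AZU1, PRTN3 and ELANE, and by a lower level of CTSG. S100A8 changed most, 8.34-fold. LYZ changed 2.75-fold and AZU1 2.58-fold, in an order that turned without MV4-11 AC220 replicate 1. MPO and S100A9 did not pass the test. These 6 calls of 8 stand against 58.3% of all 12392 tested genes called in this comparison, the 5 rises against 31.5% of tested genes that rose, and the 1 fall against 26.9% that fell. A change of at least 2-fold was called for 3 of the 8, all up, against 9.73% of tested genes that rose and 8.74% that fell as much, 18.5% together. The median log2 fold change was 0.59 over the 8 genes and 0.07 over all tested genes. In these bulk libraries, fewer cells with a transcript and less of it per cell cannot be told apart.

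**Figure D1:**
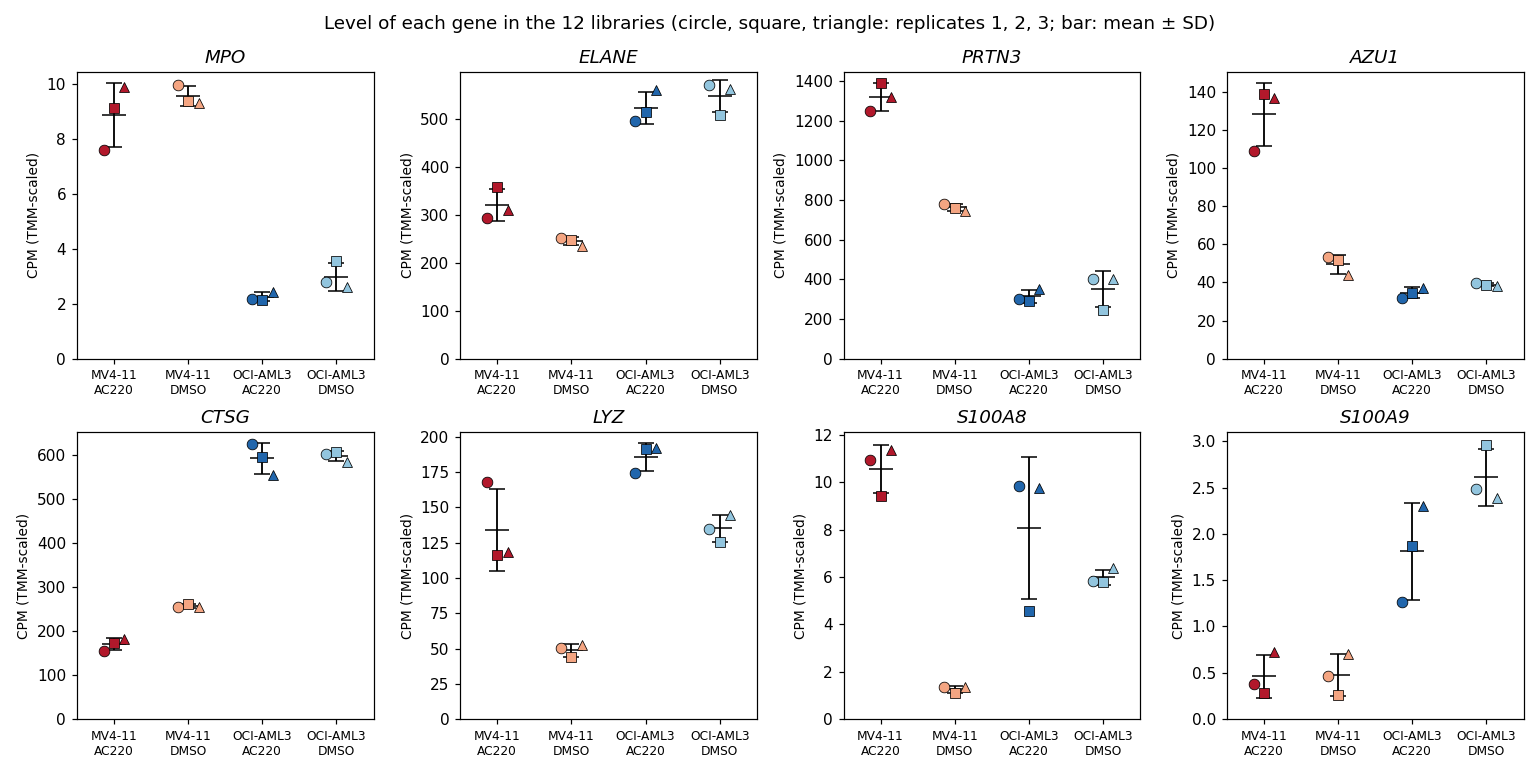
CPM of each gene (y axis, linear, from 0) in each of the 12 libraries (markers: replicates 1 to 3), with the mean and SD of each group as bars. In MV4-11 the AC220 libraries of S100A8 (9.40 to 11.4 CPM) lie above the DMSO libraries (1.09 to 1.35 CPM), and those of CTSG lie below.

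The serine proteases did not move together. PRTN3 cleaves elastin and matrix proteins and is the antigen of autoantibodies in small-vessel vasculitis. It stood at 1249, 1389 and 1318 CPM in MV4-11 AC220, against 782, 762 and 745 CPM in MV4-11 DMSO. Every AC220 library was above every DMSO library, and the log2 fold change was 0.79 (SE 0.169, 95% confidence interval 0.41 to 1.17, adjusted p = 0.00304). AZU1 is a chemoattractant and antimicrobial protein without protease activity. It had 109, 139 and 137 CPM in MV4-11 AC220 and 53.3, 51.6 and 44.0 CPM in MV4-11 DMSO, again without overlap (log2 fold change 1.37, SE 0.0917, adjusted p = 1.58e-13). ELANE, the gene mutated in cyclic and severe congenital neutropenia, had 294, 359 and 310 CPM in MV4-11 AC220 and 253, 248 and 236 CPM in MV4-11 DMSO. Its rise was the smallest of the 5 called, 1.30-fold (log2 fold change 0.38, SE 0.0703, adjusted p = 2.88e-05), and 55.7% of all tested genes had a larger change in either direction. CTSG, a chymotrypsin-like protease, went the other way, with 155, 173 and 182 CPM in MV4-11 AC220 and 254, 261 and 256 CPM in MV4-11 DMSO. It was 1.51-fold lower, with no overlap between the groups (log2 fold change -0.60, SE 0.0645, adjusted p = 4.05e-09).

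AZU1, PRTN3 and ELANE stand next to each other on chromosome 19, while CTSG lies on chromosome 14 beside granzyme genes. RefSeq sequences upstream of the transcript start were at hand for 5 of the 8 genes, and the proximal 150 bases are shown because the AZU1 and PRTN3 transcripts rose and the CTSG transcripts fell, and because S100A8 rose without S100A9. All are from build GRCh38.p14, 5′ to 3′ on the strand of the gene, ending at the base before the start. They are AZU1 at chr19:827687-827836 (+), PRTN3 at chr19:840849-840998 (+), CTSG at chr14:24576251-24576400 (-), S100A8 at chr1:153391074-153391223 (-) and S100A9 at chr1:153357704-153357853 (+). Capitals mark matches on either strand to TTNNGNAA (C/EBP), GAGGAA (PU.1), TGTGGT (RUNX) and AACNG (MYB), motifs of factors known for granule genes.
AZU1: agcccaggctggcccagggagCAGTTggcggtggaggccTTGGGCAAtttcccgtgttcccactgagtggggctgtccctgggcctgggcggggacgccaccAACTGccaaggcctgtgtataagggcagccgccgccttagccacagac
PRTN3: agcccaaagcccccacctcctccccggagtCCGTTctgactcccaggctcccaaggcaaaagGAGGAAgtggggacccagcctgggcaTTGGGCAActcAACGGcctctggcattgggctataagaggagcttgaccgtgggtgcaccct
CTSG: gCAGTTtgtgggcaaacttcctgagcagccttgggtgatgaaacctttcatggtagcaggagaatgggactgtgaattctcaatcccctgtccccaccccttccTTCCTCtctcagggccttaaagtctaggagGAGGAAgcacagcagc
S100A8: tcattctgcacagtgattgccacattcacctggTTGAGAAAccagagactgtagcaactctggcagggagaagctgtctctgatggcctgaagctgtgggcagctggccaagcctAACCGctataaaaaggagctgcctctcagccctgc
S100A9: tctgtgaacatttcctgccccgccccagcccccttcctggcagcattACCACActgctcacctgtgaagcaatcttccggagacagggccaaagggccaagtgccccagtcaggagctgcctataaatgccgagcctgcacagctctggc
The AZU1 and PRTN3 stretches share the C/EBP match TTGGGCAA, which begins 111 bases before the AZU1 start and 62 bases before the PRTN3 start. The PRTN3 stretch adds a PU.1 match 88 bases before the start. The CTSG stretch holds PU.1 matches beginning 46 and 16 bases before the start and no C/EBP match, but its full window of 300 bases has 1 C/EBP match, as many as the windows of AZU1 and PRTN3. In the full windows of 300 bases, TTNNGNAA occurred in 36.8%, GAGGAA in 27.9%, TGTGGT in 13.1% and AACNG in 77.2% of 35116 RefSeq promoters. No 2 of these motifs overlapped in the 5 stretches. For S100A8, which has 3 listed starts, the window with TATAA 29 bases before the start is shown. The full 300-base windows of S100A8 and S100A9 each hold 2 C/EBP matches, 1 PU.1 match and 1 MYB match. That of S100A9 adds 1 RUNX match, so the other differences between their capitals come from the shorter stretch. The matches describe letters and do not show binding.

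Ratios of counts inside a library do not depend on scaling between libraries, and they were chosen after the values were seen, so they carry no test. PRTN3 counts per ELANE count were 4.13 ± 0.220 in MV4-11 AC220 and 3.11 ± 0.0442 in MV4-11 DMSO (SD, n = 3 each). CTSG counts per ELANE count were 0.532 ± 0.0527 in MV4-11 AC220 and 1.05 ± 0.0402 in MV4-11 DMSO. The ranges of the groups did not meet for either ratio, which describes these libraries and was not tested. How many other gene pairs would separate as well was not counted. AZU1 counts per PRTN3 count were 0.0969 ± 0.00860 in MV4-11 AC220 and 0.0650 ± 0.00517 in MV4-11 DMSO. In OCI-AML3 the PRTN3 to ELANE ratio was 0.599 ± 0.0321 under AC220 and 0.634 ± 0.131 under DMSO, and the CTSG to ELANE ratio lay between 0.988 and 1.26 under AC220 and between 1.04 and 1.19 under DMSO, with overlapping libraries for both ratios.

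**Figure D2:**
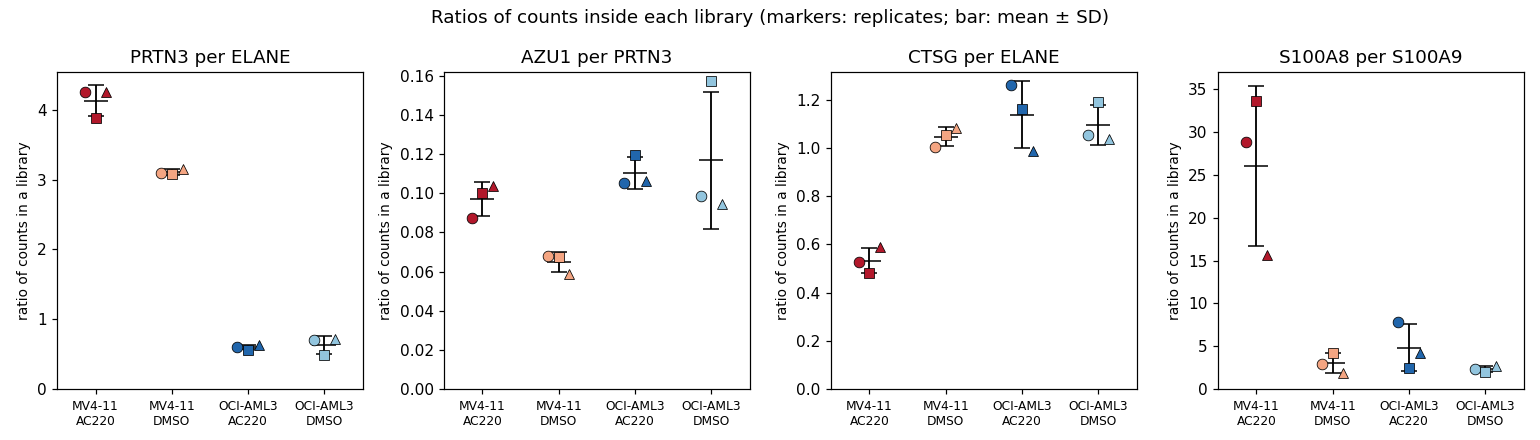
Ratio of the counts of gene pairs inside each library (y axis, linear, from 0) by group, with replicates as markers and mean ± SD as bars. The CTSG to ELANE ratio is 0.483 to 0.588 in MV4-11 AC220 and 1.00 to 1.08 in MV4-11 DMSO, and the S100A8 to S100A9 ratio reaches 33.7 in MV4-11 AC220.

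MPO transcripts were few in both lines. MPO had 7.60, 9.12 and 9.90 CPM in MV4-11 AC220 and 9.98, 9.37 and 9.32 CPM in MV4-11 DMSO. The groups overlapped, and the log2 fold change of -0.11 did not pass the test (95% confidence interval -0.46 to 0.24, adjusted p = 0.593). Of the haem and chlorination list, which covers the haem that MPO needs and the oxidase that supplies its substrate, 4 of 15 tested genes rose and 3 fell in MV4-11, against 31.5% and 26.9% of all tested genes (median log2 fold change 0.05 in the list). ALAD, of an early step of haem synthesis, rose by 0.99 on the log2 scale, FECH, of the last step, by 0.65, and NCF4, an oxidase subunit, by 0.44. CYBB (-0.94) and NCF1 (-0.74) were among those that fell, and NCF1 is uncertain because near-identical pseudogenes may share its reads. CPOX, of haem synthesis, was the 1 gene of this list called in OCI-AML3 (0.67), against 3.95% of all tested genes. CALR and CANX, chaperones that fold MPO, had log2 fold changes of 0.05 and 0.14 and did not pass the test.

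Lysozyme and S100A8 also rose in MV4-11. LYZ had 168, 116 and 119 CPM in MV4-11 AC220 and 50.2, 43.8 and 52.7 CPM in MV4-11 DMSO. All AC220 libraries were above all DMSO libraries, with replicate 1 the highest (log2 fold change 1.46, SE 0.123, adjusted p = 5.86e-08). Without that library it was 1.26, below the 1.47 of AZU1 in the same setting. S100A8 had 10.9, 9.40 and 11.4 CPM in MV4-11 AC220, against 1.33, 1.09 and 1.35 CPM in MV4-11 DMSO. The groups stood well apart, with 101 to 144 counts per AC220 library and 17 to 23 per DMSO library (log2 fold change 3.06, SE 0.258, adjusted p = 2.58e-11). Only 2.45% of tested genes had a larger change in either direction.

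S100A9, the partner of S100A8, was close to the detection limit in MV4-11. It had 5, 3 and 8 counts in the MV4-11 AC220 libraries and 8, 4 and 11 counts in the MV4-11 DMSO libraries. The groups overlapped, and the log2 fold change of -0.05 had a 95% confidence interval of -1.19 to 1.09 (adjusted p = 0.951), so a change of about 2-fold was not detectable at this depth. S100A8 counts per S100A9 count were 26.0 ± 9.33 in MV4-11 AC220 and 3.01 ± 1.18 in MV4-11 DMSO (SD, n = 3 each). In OCI-AML3 they were 4.83 ± 2.72 under AC220 and 2.32 ± 0.360 under DMSO.

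In OCI-AML3, 1 of the 8 genes was called after AC220, LYZ, against 3.95% of all tested genes, and against 3.44% that rose and 0.508% that fell. None of the 8 was called at 2-fold or more, against 0.218% of tested genes, 0.21% up and 0.00807% down. LYZ had 174, 191 and 192 CPM in OCI-AML3 AC220 and 135, 126 and 145 CPM in OCI-AML3 DMSO, with no overlap (log2 fold change 0.46, SE 0.117, adjusted p = 0.0415). The call was lost without MV4-11 DMSO replicate 1 (adjusted p = 0.0617), OCI-AML3 DMSO replicate 1 (0.177) or 2 (0.202) and OCI-AML3 AC220 replicate 2 (0.111) or 3 (0.203). It was also lost with library totals as the scaling (0.0993) and by limma on the deposited normalised values (0.146). The log2 fold change stayed between 0.41 and 0.51 over all alternatives.

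The other granule genes of OCI-AML3 did not pass the test. PRTN3 had 301, 290 and 352 CPM in OCI-AML3 AC220 and 403, 246 and 401 CPM in OCI-AML3 DMSO, with DMSO replicate 2 low (log2 fold change -0.16, 95% confidence interval -0.55 to 0.23, adjusted p = 0.677). Without that library PRTN3 passed, with a log2 fold change of -0.36 and an adjusted p of 0.0444. ELANE had 496, 514 and 562 CPM in OCI-AML3 AC220 and 571, 510 and 563 CPM in OCI-AML3 DMSO, which overlapped (log2 fold change -0.06, adjusted p = 0.653). CTSG had 626, 597 and 555 CPM in OCI-AML3 AC220 and 602, 607 and 585 CPM in OCI-AML3 DMSO, a log2 fold change of -0.01 with an interval of -0.14 to 0.12. AZU1 had 31.7, 34.7 and 37.3 CPM in OCI-AML3 AC220 and 39.8, 38.6 and 38.0 CPM in OCI-AML3 DMSO. The AC220 libraries of AZU1 were all below those under DMSO, without passing the test (log2 fold change -0.16, adjusted p = 0.362).

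S100A8 had 9.83, 4.58 and 9.78 CPM in OCI-AML3 AC220 and 5.83, 5.77 and 6.36 CPM in OCI-AML3 DMSO, with replicate 2 below the DMSO libraries and the others above (log2 fold change 0.42, adjusted p = 0.274). Without AC220 replicate 2 it was 0.71 (adjusted p = 0.0663). S100A9 had 1.26, 1.87 and 2.30 CPM in OCI-AML3 AC220 and 2.49, 2.96 and 2.39 CPM in OCI-AML3 DMSO (log2 fold change -0.51, adjusted p = 0.435). MPO lay between 2.15 and 2.44 CPM in OCI-AML3 AC220 and had 2.80, 3.57 and 2.60 CPM in OCI-AML3 DMSO (log2 fold change -0.40, adjusted p = 0.333). For S100A9 and MPO the AC220 libraries were all below the DMSO libraries, and neither passed the test.

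**Figure D3:**
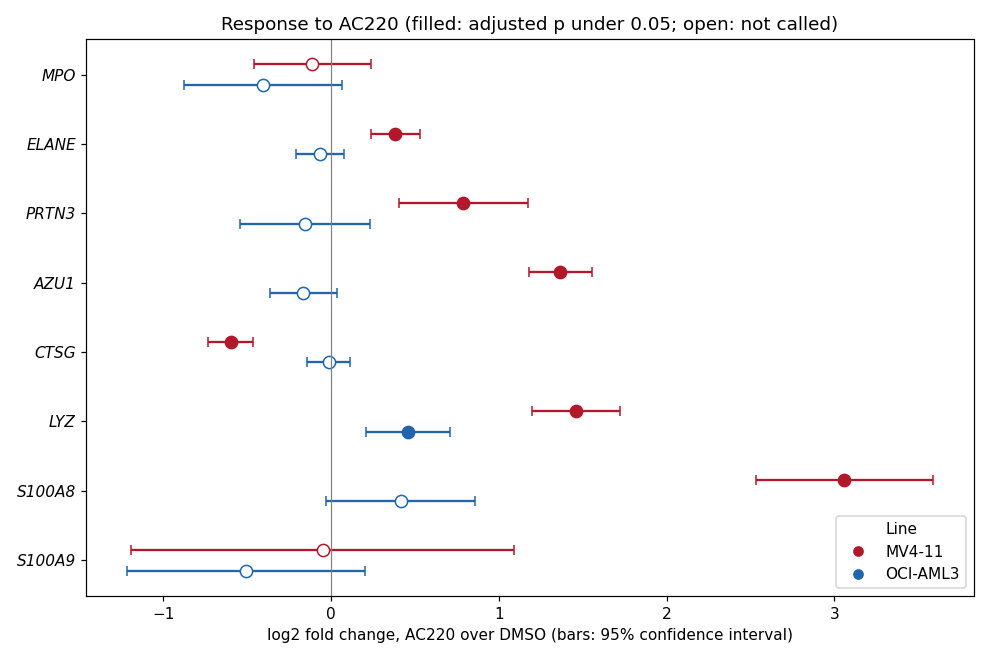
Log2 fold change of AC220 over DMSO (x axis) for each gene in MV4-11 (red) and OCI-AML3 (blue), with 95% confidence intervals as bars and filled markers for an adjusted p under 0.05. S100A8, LYZ and AZU1 lie above 1 in MV4-11, and LYZ is the filled marker of OCI-AML3.

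The difference between the responses of the lines was tested directly. It passed for the 6 genes called in MV4-11, against 46.7% of all tested genes. It was positive for 5 and negative for 1, against 23% and 23.7% of tested genes. It was at least 2-fold for AZU1 and S100A8, against 18.5% of tested genes, 8.51% positive and 9.94% negative. The response of S100A8 was higher in MV4-11 by 2.64 on the log2 scale (SE 0.343, adjusted p = 2.32e-07), that of AZU1 by 1.53 (SE 0.134) and that of LYZ by 1.00 (SE 0.169). For PRTN3 the difference was 0.95 (adjusted p = 0.0103) and for ELANE 0.45 (adjusted p = 0.000423). CTSG had a difference of -0.58 (adjusted p = 3.75e-06), so its response was lower in MV4-11. MPO (0.29, adjusted p = 0.423) and S100A9 (0.46, adjusted p = 0.607) did not pass.

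Under DMSO the levels of these transcripts differed between the lines. All 8 genes differed between MV4-11 and OCI-AML3, against 65.5% of all tested genes. Of these, 3 were higher and 5 lower in MV4-11, against 32.1% and 33.4% of tested genes. At least 2-fold were 7 of the 8, against 27.2% of tested genes, with 2 higher and 5 lower against 13.6% each way. These counts include S100A9, which was tested through the OCI-AML3 libraries alone, so its difference was bound to appear. PRTN3 (2.18-fold), MPO (3.19-fold) and AZU1 (1.28-fold) were higher in MV4-11. ELANE (2.23-fold), CTSG (2.33-fold), LYZ (2.76-fold), S100A8 (4.73-fold) and S100A9 (5.40-fold) were lower in MV4-11. PRTN3 averaged 763 ± 18.1 CPM in MV4-11 DMSO and 350 ± 90.5 CPM in OCI-AML3 DMSO (log2 fold change 1.12, SE 0.171, adjusted p = 0.000295). ELANE averaged 246 ± 8.64 CPM in MV4-11 DMSO and 548 ± 33.4 CPM in OCI-AML3 DMSO (log2 fold change -1.16, adjusted p = 9.71e-15). CTSG averaged 257 ± 3.99 CPM in MV4-11 DMSO and 598 ± 11.2 CPM in OCI-AML3 DMSO (SD, n = 3 each). PRTN3 and ELANE, neighbours on chromosome 19, were thus on opposite sides, with 3.11 PRTN3 counts per ELANE count in MV4-11 DMSO and 0.634 in OCI-AML3 DMSO.

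Under AC220, 7 of the 8 differed between the lines, against 76.2% of tested genes, 3 higher and 4 lower in MV4-11 against 36.7% and 39.5%. At least 2-fold were 5 of the 8, against 39.9% of tested genes, with 3 higher against 19.7% and 2 lower against 20.2%. S100A9, tested through the OCI-AML3 libraries alone, is again among those counted as lower. AZU1 was 3.70-fold and PRTN3 4.20-fold higher in MV4-11. CTSG was 3.49-fold lower, ELANE 1.63-fold lower, LYZ 1.38-fold lower and S100A9 3.94-fold lower in MV4-11. MPO was 3.91-fold higher. S100A8, at 10.6 ± 1.03 CPM in MV4-11 AC220 and 8.06 ± 3.02 CPM in OCI-AML3 AC220 (SD, n = 3 each), was not called (log2 fold change 0.40, adjusted p = 0.0806). It passed without OCI-AML3 AC220 replicate 1 (adjusted p = 0.0307) or 3 (0.0266), without MV4-11 AC220 replicate 2 (0.0494), with upper-quartile scaling (0.0422) and by limma-voom (0.0356). The comparisons share libraries with those above and are not independent of them.

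Ordered by mean level, the groups differed from gene to gene. For PRTN3 and AZU1 the order was MV4-11 AC220, MV4-11 DMSO, OCI-AML3 DMSO and OCI-AML3 AC220, and for PRTN3 the OCI-AML3 groups overlapped. For CTSG it was OCI-AML3 DMSO, OCI-AML3 AC220, MV4-11 DMSO and MV4-11 AC220, and for ELANE it was the same but for the MV4-11 groups, which changed places. The OCI-AML3 groups overlapped for CTSG and ELANE. For LYZ, OCI-AML3 AC220 was highest, MV4-11 AC220 (134 CPM) and OCI-AML3 DMSO (135 CPM) overlapped, and MV4-11 DMSO was lowest. For S100A8, MV4-11 AC220, OCI-AML3 AC220 and OCI-AML3 DMSO overlapped in turn, and MV4-11 DMSO stood apart below them.

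Summed, the 8 genes held 0.200 ± 0.00537% of library counts in MV4-11 AC220 and 0.141 ± 0.00200% in MV4-11 DMSO (SD, n = 3 each). The libraries did not overlap, and the exact permutation test gave a two-sided p of 0.1, the smallest that 3 against 3 libraries allow. PRTN3 made most of this gain, at 0.126% of counts in MV4-11 AC220 and 0.0783% in MV4-11 DMSO. In OCI-AML3 the sum was 0.168 ± 0.00579% under AC220 and 0.169 ± 0.0141% under DMSO (exact permutation p = 1, two-sided).

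**Figure D4:**
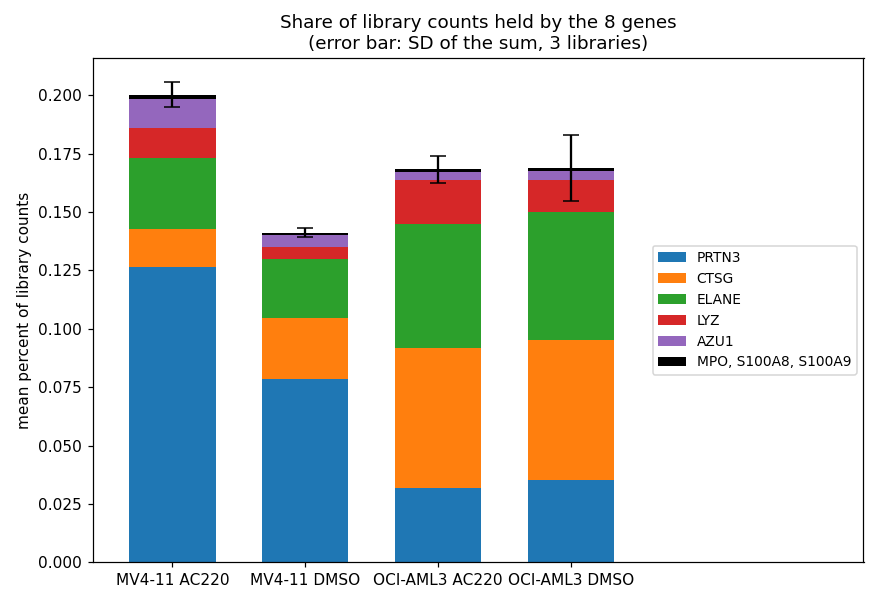
Mean percent of library counts (y axis, from 0) held by each gene in the 4 groups, stacked, with the SD of the sum over 3 libraries. PRTN3 is the largest segment in MV4-11 (0.126% under AC220, 0.0783% under DMSO), and CTSG and ELANE are the largest in OCI-AML3.

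Of 21 other azurophil granule genes and partners with a row 15 were tested. In MV4-11 10 rose and 1 fell, against 31.5% and 26.9% of all tested genes, with a median log2 fold change of 0.45 in the list and 0.07 over all tested genes. The difference from other genes was not tested. The granule proteoglycan SRGN, on which proteases are packed, rose by 0.94 on the log2 scale, to 2190 ± 74.0 CPM in MV4-11 AC220 against 1144 ± 72.9 CPM in MV4-11 DMSO (SD, n = 3 each). RNASE3 (eosinophil cationic protein) rose by 1.13, its close paralog RNASE2 by 0.45, the lysosomal glucosidase GAA by 1.27 and the granule membrane protein CD63 by 0.52. CTSC, the protease that activates ELANE, PRTN3 and CTSG, had 44.5 CPM in MV4-11 AC220 and 43.9 CPM in MV4-11 DMSO and did not pass the test (adjusted p = 0.91). The gene that fell was LPO, lactoperoxidase, a neighbour of MPO (-2.98). PRSS57, a further serine protease of azurophil granules, stood at 362 CPM in MV4-11 AC220 and 339 CPM in MV4-11 DMSO, and at 0.0772 CPM in OCI-AML3 AC220 and 0.101 CPM in OCI-AML3 DMSO. PRSS57 differed between the lines under DMSO (adjusted p = 1.33e-29), but it passed the filter through MV4-11 alone, so this difference was bound to appear. CTSB, a cysteine protease with 188 CPM in MV4-11 DMSO and 85.3 CPM in OCI-AML3 DMSO, and RNASE3 (-1.08) also differed between the lines under DMSO. BPI had mean levels of at most 0.294 CPM. The defensins DEFA1, DEFA1B, DEFA3 and DEFA4 had no counts, which is uncertain for DEFA1, DEFA1B and DEFA3 since reads from such alike genes may go uncounted. In OCI-AML3 2 of the 15 rose, against 3.44% of all tested genes, among them CTSC (0.56, adjusted p = 0.0494).

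Specific and gelatinase granules form after the azurophil ones. Of 26 of their genes with a row 12 passed the filter on low counts, and in MV4-11 3 rose and 3 fell, against 31.5% and 26.9% of all tested genes (median log2 fold change 0.04 in the list). CHI3L1, a chitinase-like protein, rose by 1.39 on the log2 scale, CYBA by 0.72 and ITGAM by 1.49. The acute-phase genes ORM1 (-5.29) and ORM2 (-4.41), alike enough in sequence to share reads, and CYBB (-0.94) fell. CRISP3, OLFM4, PGLYRP1 and CD177 had no counts in the 4 groups, and LTF and LCN2 had a mean of at most 0.219 CPM. Under DMSO, CHI3L1 (4.27) was higher and CYBB (-5.35) lower in MV4-11 than in OCI-AML3, and ORM1 had 16.1 CPM in MV4-11 DMSO and no counts in OCI-AML3 DMSO. ORM1 passed the filter through MV4-11 DMSO alone, so its difference between the lines and its fall after AC220 were bound to appear.

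Of 11 tested inhibitors of the proteases, 5 rose and 3 fell in MV4-11, against 31.5% and 26.9% of all tested genes (median log2 fold change 0.50 in the list). SERPINB1, the cytosolic inhibitor of neutrophil elastase, cathepsin G and proteinase 3, rose by 0.73, to 121 CPM in MV4-11 AC220 against 72.8 CPM in MV4-11 DMSO. CST3 and CSTB, which inhibit cysteine proteases, rose by 2.35 and 0.50. SERPINB9, a granzyme B inhibitor, was called as risen, at 0.235 CPM in MV4-11 AC220 against 0.0214 CPM in MV4-11 DMSO. Both levels are near or below 3 counts per library, so this rise rests on very few reads. SERPINB9 had 10.0 CPM in OCI-AML3 DMSO and passed the filter through OCI-AML3 alone, so its lower level in MV4-11 under DMSO was bound to appear. SERPINB10 rose to 1.37 CPM in MV4-11 AC220 against 0.122 CPM in MV4-11 DMSO. It passed the filter through MV4-11 AC220 alone, so this rise, 1 of the 5 counted, was bound to appear. A2M (-1.89), SERPINB6 (-0.53) and SERPINB8 (-0.34) fell. SLPI, a secreted inhibitor of elastase and cathepsin G, had 1.21 CPM in MV4-11 AC220 and 1.00 CPM in MV4-11 DMSO and did not pass the test. It was lower in MV4-11 than in OCI-AML3 under DMSO, with a log2 fold change of -3.41 and a mean of 10.8 CPM in OCI-AML3 DMSO. In OCI-AML3, CSTB (0.67) was the 1 gene of this list that rose after AC220, against 3.44% of all tested genes.

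**Figure D5:**
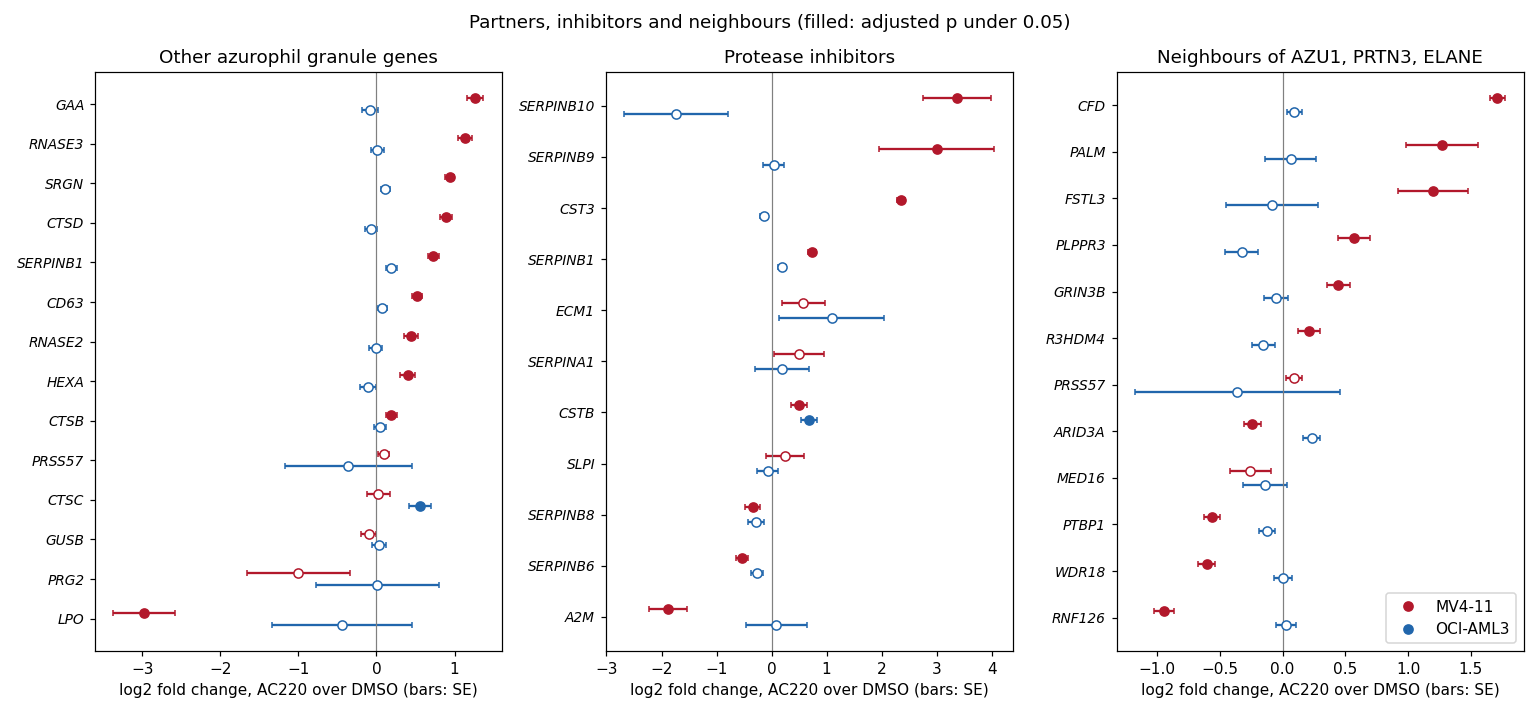
Log2 fold change of AC220 over DMSO (x axis, bars are SE) in MV4-11 (red) and OCI-AML3 (blue) for tested genes of 3 lists, 1 of them not shown, filled where the adjusted p was under 0.05. SRGN (0.94) and SERPINB1 (0.73) are higher in MV4-11, and CFD (1.71) is the neighbour of ELANE with the largest rise.

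Of 7 other S100 genes tested in MV4-11, 3 rose and 3 fell, against 31.5% and 26.9% of all tested genes (median log2 fold change 0.52 in the list). S100A4, a regulator of motility, rose by 1.97 on the log2 scale, to 557 ± 21.8 CPM in MV4-11 AC220 against 142 ± 7.81 CPM in MV4-11 DMSO (SD, n = 3 each). S100A6 rose by 1.34 and S100A13 by 1.34. S100P fell by 4.79, to 0.641 CPM in MV4-11 AC220 against 17.0 CPM in MV4-11 DMSO. S100A10 (-0.43) also fell, and S100A11 (-0.19) did so at the very edge of the threshold. S100A12, which lies between S100A9 and S100A8 on chromosome 1, had means of at most 0.161 CPM. S100A6 was also called in OCI-AML3, at 0.42, the 1 of 7 called there against 3.95% of all tested genes. Under DMSO, S100A4 (2.63) was higher and S100A11 (-1.45) and S100A6 (-1.01) were lower in MV4-11 than in OCI-AML3.

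Of 8 tested receptors of calprotectin and of the proteases, 4 rose and 1 fell in MV4-11, against 31.5% and 26.9% of all tested genes (median log2 fold change 0.23 in the list). CD36, a scavenger receptor that binds calprotectin, rose by 2.74 on the log2 scale, TLR4, the endotoxin receptor that calprotectin also engages, by 0.75, and the thrombin receptor F2R by 1.36. AGER, another calprotectin receptor, did not pass the test (-0.01). CD33, listed with them, rose by 0.24. ITGB2, the beta chain that pairs with ITGAM in the integrin Mac-1, fell by 2.33. Under DMSO, ITGB2 (-2.01), CD36 (-1.78) and TLR4 (-1.50) were lower in MV4-11 than in OCI-AML3. None of the 8 was called in OCI-AML3 after AC220, where 3.95% of all tested genes were called.

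Of 23 tested transcription factors known for granule genes, 7 rose and 7 fell in MV4-11, close to the 31.5% and 26.9% of all tested genes (median log2 fold change -0.05 in the list). CEBPA, which drives granulocyte commitment, rose by 0.51 on the log2 scale, to 277 CPM in MV4-11 AC220 against 194 CPM in MV4-11 DMSO. CEBPE, of late granule genes, rose to 1.91 CPM in MV4-11 AC220 against 0.838 CPM in MV4-11 DMSO (adjusted p = 0.0238). Only in MV4-11 AC220 (1.45 to 2.51 CPM) did all libraries of CEBPE reach the cutoff of the filter. The MV4-11 DMSO libraries lay between 0.522 and 1.41 CPM, so the filter favoured a rise of CEBPE. ID2 (0.91), ETV6 (0.48), STAT5A (1.42), RXRA (0.23) and STAT3 (0.22) also rose. CEBPB (-1.54), CEBPD (-0.91), CEBPG (-1.12), GATA2 (-1.77), CBFB, the partner of RUNX1 (-0.63), and EGR1 (-4.24) were among those that fell. SPI1 (PU.1), RUNX1, MYB and GFI1 did not pass the test, with log2 fold changes of 0.13, -0.12, 0.14 and -0.05. In OCI-AML3 3 of the 23 rose, CEBPB (0.51), CEBPG (0.61) and KLF4 (1.93), against 3.44% of all tested genes. Between the lines under DMSO, RUNX1 had 125 CPM in MV4-11 DMSO and 30.7 CPM in OCI-AML3 DMSO (log2 fold change 2.03, adjusted p = 2.33e-18). STAT5A, with 6.49 CPM in MV4-11 DMSO and 0.0766 CPM in OCI-AML3 DMSO, was also higher and RXRA (-1.09) lower in MV4-11. STAT5A passed the filter through MV4-11 alone, so its difference between the lines was bound to appear.

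Among neighbours of AZU1, PRTN3 and ELANE on chromosome 19, 6 of 12 tested rose and 4 fell in MV4-11, against 31.5% and 26.9% of all tested genes (median log2 fold change 0.15 in the list). CFD, complement factor D, the next gene after ELANE, rose by 1.71 on the log2 scale, to 796 CPM in MV4-11 AC220 against 243 CPM in MV4-11 DMSO. On the other side of AZU1, PLPPR3 rose by 0.57, and PTBP1 beyond it, a splicing factor, fell by 0.56. MED16, the next gene after CFD, did not pass the test (-0.26), and RNF126 fell by 0.94. None of the 12 was called in OCI-AML3 after AC220, where 3.95% of all tested genes were called. Under DMSO, PALM (-2.54) was lower and ARID3A (0.58) higher in MV4-11 than in OCI-AML3. Near LYZ, the carboxypeptidase M gene rose by 1.84, and YEATS4 fell by 1.12 and CCT2 by 0.84, 2 up and 3 down of 6 tested. Near MPO, 3 of 5 tested rose, TSPOAP1 (0.82), RNF43 (0.68) and SUPT4H1 (0.31), and LPO and MKS1 (-0.50) fell. Of the granzyme and chymase genes near or related to CTSG, GZMA and STXBP6 were the 2 tested of the list, and neither was called in MV4-11.

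The genes whose log2 CPM followed each member most closely over the 12 libraries were named by Pearson correlation among 8926 genes, as a description. The libraries share 4 conditions, so the values mostly reflect the differences between those groups, and close levels can still stand in another order. MPO was followed by FNTA (r = 0.993) and RUNX1 (0.992), ELANE by ZNF655 (0.989) and MBTPS1 (0.989), and PRTN3 by COL9A2 (0.994) and KCNQ1 (0.991). AZU1 was followed by ZNF296 (0.996) and TIAF1 (0.993), CTSG by DBN1 (0.998) and COL27A1 (0.998), and LYZ by RUNX2 (0.993) and YWHAZ (0.982). S100A8 was followed by CYSLTR1 (0.977) and PLD3 (0.974), and S100A9 by GPATCH2 (0.968) and DIPK1B (0.962). Among the members, PRTN3 and AZU1 had r = 0.906, LYZ and S100A8 0.884, PRTN3 and CTSG -0.975, and S100A8 and S100A9 0.318.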

How the data were processed

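Per the labels' protocols, library preparation used a Lexogen QuantSeq kit, which primes from the 3' end. Per the submitters' processing notes, the tools were HISAT2 2.0.4 and featureCounts of Subread 2.0.0 with build hg19, besides limma 3.42.2 under R 3.6.1 and, for the reads, cutadapt 1.9.1, FastQC 0.11.6 and bcl2fastq 2.17.1.14. The annotation, strand setting and handling of reads with several positions are not given in the sources used here, so reads of close paralogs and overlapping genes may be divided or lost. The authors deposited a table of raw counts by gene symbol and a table of normalised log2 values, named as voom-limma output, which was used only as an alternative and has no S100A9. A row without a symbol (0.00343% to 0.00503% of counts) was left out. Some genes of the lists are counted but not reported here by name.

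The members and lists were chosen with earlier results of these data known. Genes were filtered with filterByExpr (12392 left) and scaled by TMM, and all 12 libraries were fitted with a mean per group (8 residual degrees of freedom). Tests were quasi-likelihood F tests of edgeR 4.0.16 in R 4.3.3, with Benjamini-Hochberg adjustment over all tested genes at 0.05. SE is the absolute log2 fold change over the square root of F. CPM are given per library or as mean ± SD, and they do not measure RNA per cell. Named genes are the 8 members, in each list the 3 with the smallest adjusted p in MV4-11 and between the lines, those against a list where few were, partners, inhibitors, regulators, paralogs and neighbours of members, and the 2 closest genes in pattern. Alternatives used DESeq2 1.42.0 and limma 3.58.1 among others. On simulated counts for the MV4-11 comparison over 12146 genes, 52% of 50 genes changed by 0.5 on the log2 scale were recovered, 92.9% of 98 changed by 1 and 95.9% of 49 changed by 2. Few genes were changed in the simulation, while 58.3% of tested genes were called in MV4-11. These shares therefore do not give the recovery in the real comparison. Counts without molecular identifiers are not independent molecules.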

Additional observations from a re-analysis of the deposited data

Results flagged for a closer look

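The AC220 response differed between the lines by the interaction test for 6 of the 8 genes, given as the log2 response in MV4-11 minus that in OCI-AML3. The difference was 2.64 for S100A8, 1.53 for AZU1, 1.00 for LYZ, 0.95 for PRTN3, 0.45 for ELANE and -0.58 for CTSG. For S100A8 the responses were 3.06 in MV4-11 and 0.42 in OCI-AML3, for CTSG -0.60 in MV4-11 and -0.01 in OCI-AML3. For LYZ they were 1.46 in MV4-11 and 0.46 in OCI-AML3, with replicate 1 of MV4-11 AC220 the highest library, and the difference without it was 0.80. The groups of 3 libraries are too small for a test of single outlying libraries.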

How the results depend on the processing

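Of 946 alternative values of single genes over the 5 comparisons and 24 settings, 931 kept their side of the threshold, among them all 190 for AC220 in MV4-11 and all 191 for the lines under DMSO. In no alternative did a called gene change its direction. Some values that were not called did change sign, namely S100A9 in MV4-11 (-0.55 to 0.32), CTSG in OCI-AML3 (-0.05 to 0.03) and S100A9 in the difference of the responses (-0.01 to 0.83). The exceptions were LYZ and PRTN3 in OCI-AML3 and S100A8 between the lines under AC220, given with the results, and PRTN3 in the difference of the responses, whose adjusted p of 0.0103 misses a threshold of 0.01. In OCI-AML3 the number of the 8 genes called was 0 with library totals only, with limma run on the deposited log2 table and at a threshold of 0.01, and 0 to 1 when leaving out each library. The number of all genes called there was 489, 13 to 1136 when leaving out a library and 1 to 836 over the other settings. The cause was not tested. Without PRTN3, which has the most counts over all 12 libraries but not in OCI-AML3, the summed share was 0.0740% in MV4-11 AC220, 0.0629% in MV4-11 DMSO, 0.136% in OCI-AML3 AC220 and 0.134% in OCI-AML3 DMSO. Library totals as the scaling moved the median of all genes in the difference of the responses by -0.11 on the log2 scale.

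The replicate numbers are shared by the groups, but the correlation of same-numbered deviations lay between -0.181 and 0.180, so the numbers were not taken as a pairing. With a replicate block, 6 of the 8 genes were called in MV4-11, 1 in OCI-AML3, 6 in the difference of the responses, 8 between the lines under DMSO and 7 under AC220. Depth limits S100A9 in MV4-11, where a library held at most 11 counts.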
